A study of Mus musculus with 8 samples.

Results

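The guanylate-binding proteins (GBPs) of the mouse were followed through RNA-Seq values of tumor-associated macrophages (TAMs) from mice with and without miR-21. The 10 genes Gbp2, Gbp2b, Gbp3, Gbp4, Gbp5, Gbp6, Gbp7, Gbp8, Gbp9 and Gbp10 were taken by gene symbol from the 53247 genes of the table, and all 10 were expressed at a level that allowed a test. LLC, the Lewis lung carcinoma line of the mouse, was implanted s.c. into mice 8 weeks old, and after 14 days the TAMs were sorted from the tumors by flow cytometry, gated on F4/80, MHC II, CD11b and CD45. The comparison asks what the lack of miR-21 changes in the transcripts of these macrophages.

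The WT group held 4 samples from C57/BL6 mice, and the miR-21-/- group held 4 samples from miR-21 null mice of the same strain, all given as 10 weeks old. The null allele (Mir21atm1Yoli) is carried in the germline, so that all host cells of these mice lack miR-21 and not the macrophages alone, whereas the implanted LLC cells came from the same line in both groups. The labels call the samples biological replicates without saying how many mice stand behind each, and the title of miR-21-/- sample 1 joins a pair of sample numbers, so it may be a pool; it was counted as 1 sample. Adjusted p-values therefore measure the spread between these samples.

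GBPs are large GTPases of the dynamin superfamily that macrophages make in quantity when interferon-γ (IFN-γ) acts on them, in part through IRF1. They assemble on the membranes of pathogen-containing vacuoles and on bacteria in the cytosol, break these open and hand bacterial products to the inflammasomes, the complexes that activate caspase-1 and caspase-11. In tumors their transcripts are widely read as a trace of IFN-γ acting on the cell. In the mouse the genes lie in a pair of clusters, on chromosomes 3 and 5.

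The microRNA that the null mice lack, miR-21a-5p, is encoded on the minus strand at chr11:86584120-86584141. Its mature sequence is shown because the 3′ UTRs of the Gbp transcripts were searched for its seed (bases 2 to 8, in capitals).
mmu-miR-21a-5p: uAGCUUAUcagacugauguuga
The search covered the sequence after the stop codon in 1 transcript per gene. None of these 3′ UTRs held the 8-base site complementary to bases 2 to 8 followed by an A. None held the 7 bases complementary to bases 2 to 8. Outside the searched sequence, the Gbp5 transcript holds the letters of the 8-base site, ataagcta, where its coding sequence runs into the stop codon. The other 7-base site searched for, complementary to bases 2 to 7 and followed by an A, was held by the 3′ UTR of Gbp4 alone. The site in Gbp4 does not pair with base 8. That site is shown in capitals within 24 bases of the Gbp4 3′ UTR at chr5:105115858-105115881 (GRCm38, minus strand), where it starts at base 2405 of 2511.
Gbp4 3′ UTR: ctattattTAAGCTAccttgtgat
A match of letters is a description of the transcript and not evidence of binding. Mir21a itself was listed at the lowest value of the table in all 8 samples, which a library of mRNA would also give for a short RNA, so that the genotype labels could not be checked with it. Vmp1, whose transcripts overlap the Mir21a locus, had a mean level of 124 ± 9.08 CPM among WT samples, and among miR-21-/- samples one of 397 ± 23.4 CPM (SD, n = 4 each).

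The authors deposited the values as CPM, counts per 1000000 reads. In the lowest values the smallest step, the worth of 1 read, was 0.0300 to 0.0495 CPM, which corresponds to a depth between 20.2 and 33.4 times 1000000 reads per sample. Samples correlated at 0.988 to 0.995 within a genotype and at 0.967 to 0.979 between genotypes, over the log2 values of the tested genes. Genes were compared with limma on log2(CPM + 1), which understates the change of low genes. A gene was called when its Benjamini-Hochberg adjusted p was at or under 0.005 and its fold change over 1.5.

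Each of the 10 Gbp genes was at a higher level in every miR-21-/- sample than in any WT sample. Transcripts of 9 of the 10 genes rose, by log2 fold changes of 0.66 to 3.03, and Gbp8, at 0.71, fell just short of the limit on the adjusted p. Over all 13362 tested genes, 2.97% were called higher, 4.27% lower and 7.24% in either direction. Groups that did not overlap, as in all 10 Gbp genes, were seen in that direction for 9.61% of all tested genes and in either direction for 35.7%. At an adjusted p of 0.05 with no limit on the fold change all 10 Gbp genes were called, compared with 9.74% of tested genes in that direction and 36.8% in either. The 10 genes had a median log2 fold change of 1.89, and all tested genes one of -0.10. Rescaling by the median of ratios moved the median of all genes to 0.0034 and the share of calls that were higher from 41.1% to 61.0% (60.0% with quantile normalization); the log2 fold changes of all 10 Gbp genes stayed above 0 under both scalings.

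**Figure D1:**
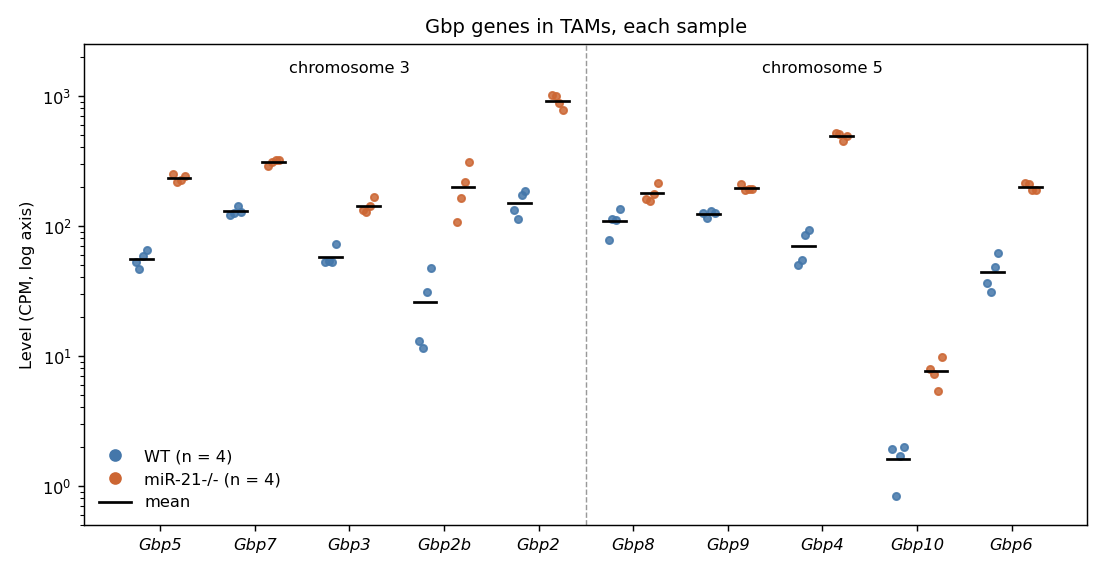
Level of each Gbp gene in each TAM sample, in CPM on a log axis, with WT samples in blue and miR-21-/- samples in orange (4 each) and bars at the means. Within each gene the groups do not overlap; the smallest gaps are those of Gbp8 and Gbp9 and the widest that of Gbp4.

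In summed CPM, the family reached 661, 664, 829 and 915 in the WT samples (in order of replicate number, here and throughout) and 2887, 2874, 2789 and 2916 in the miR-21-/- samples. The mean went from 767 ± 126 to 2867 ± 54.3 CPM (SD, n = 4 each), and the miR-21-/- samples lay close together while WT samples 3 and 4 lay above WT samples 1 and 2. In bulk samples such as these, more RNA per cell and more cells of a type that makes it cannot be told apart.

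Among the genes of chromosome 3, Gbp2 had the highest level. It encodes a GBP carried to vacuoles and bacteria by a lipid anchor at its end. Its level was 132, 112, 172 and 185 CPM in the WT samples and 1004, 988, 879 and 782 CPM in the miR-21-/- samples. Each miR-21-/- sample was more than 4 times above the highest WT sample, and the mean (± SD, n = 4 each) rose from 150 ± 34.3 to 913 ± 104 CPM, by a log2 fold change of 2.62 ± 0.15 SE (adjusted p = 4.27e-06). By size of change Gbp2 stood 21st of all tested genes.

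Gbp2b, its neighbor and closest relative on that chromosome, known earlier as Gbp1, had the largest fold change of the family and the widest spread. WT samples held 13.0, 11.5, 31.0 and 47.6 CPM, and miR-21-/- samples held 106, 164, 217 and 312 CPM. On a log scale the values spread more within each genotype than those of any other Gbp gene, and the groups nevertheless did not overlap. The log2 fold change was 3.03 ± 0.45 SE (adjusted p = 0.000821, with means of 25.8 ± 17.1 and 200 ± 87.3 CPM, SD, n = 4 each). It was the 8th largest of all tested genes. With no filter on low genes the adjusted p was 0.00760 and Gbp2b was not called.

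Gbp5, known for promoting assembly of the NLRP3 inflammasome, was the member with the smallest SE among those that rose more than 2 on the log2 scale. Its level was 52.8, 46.8, 58.2 and 65.5 CPM in the WT samples and 251, 219, 225 and 243 CPM in the miR-21-/- samples. The groups lay far apart relative to their spread (log2 fold change 2.06 ± 0.10 SE, adjusted p = 1.60e-06). Gbp7, tied to the NADPH oxidase and to autophagy on bacterial vacuoles, started higher and rose less. WT samples held 121, 126, 141 and 128 CPM and miR-21-/- samples 287, 312, 318 and 322 CPM, with little spread in either genotype (log2 fold change 1.26 ± 0.06 SE, adjusted p = 1.60e-06). Gbp3, the closest relative of Gbp7, rose by a like amount. Its WT samples held 52.2, 53.7, 52.7 and 72.6 CPM, with sample 4 apart from the others, and its miR-21-/- samples 132, 127, 142 and 167 CPM (log2 fold change 1.29 ± 0.12 SE, adjusted p = 5.78e-05).

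On chromosome 5, Gbp4 changed most. Its level was 50.1, 54.7, 84.3 and 92.0 CPM in the WT samples and 514, 506, 447 and 486 CPM in the miR-21-/- samples. WT samples 3 and 4 were the high ones of their group, as for Gbp2, Gbp2b, Gbp5, Gbp6, Gbp7 and Gbp9. The miR-21-/- samples were all over 4 times the highest WT sample (log2 fold change 2.83 ± 0.18 SE, adjusted p = 7.11e-06). Gbp6, which together with Gbp7 and Gbp10 has been tied to the defense of macrophages against bacteria in the cell, followed. WT samples held 36.4, 30.8, 48.1 and 62.1 CPM and miR-21-/- samples 213, 209, 189 and 187 CPM (log2 fold change 2.19 ± 0.18 SE, adjusted p = 3.12e-05). Gbp10, nearly identical to Gbp6 in its coding sequence, was the scarcest of the family. It stood at 1.93, 0.827, 1.69 and 1.97 CPM in the WT samples and at 7.94, 7.23, 5.34 and 9.86 CPM in the miR-21-/- samples (log2 fold change 1.72 ± 0.19 SE, adjusted p = 0.000202). At levels this low the fold change follows the pseudocount, with 2.21 for a pseudocount of 0.1 and 0.60 for one of 10, and Gbp10 was called with both; the ratio of the mean CPM values was 4.74. At the estimated depth these values are 24 to 298 reads, while no value of the 9 other genes rested on fewer than 332 reads.

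Gbp8 and Gbp9, also of the chromosome 5 cluster, differed least between the genotypes. Gbp9 was among the most even of the family, at 125, 114, 129 and 126 CPM in the WT and 210, 187, 191 and 192 CPM in the miR-21-/- samples. It rose by a log2 fold change of 0.66 ± 0.06 SE (adjusted p = 5.04e-05), just over the 1.5-fold limit. Gbp8 varied more, at 77.5, 114, 111 and 134 CPM in the WT and 162, 156, 176 and 215 CPM in the miR-21-/- samples, with WT sample 1 lowest and miR-21-/- sample 4 highest. Its log2 fold change was 0.71 ± 0.15 SE with an adjusted p of 0.00581, so that it was not called; it was without WT sample 4 (log2 fold change 0.82, adjusted p = 0.00280) and under 3 other settings.

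The make-up of the family's transcripts differed between the genotypes. Gbp2 accounted for 19.5% ± 1.78 of the summed CPM of the family in WT and for 31.9% ± 3.66 in miR-21-/- TAMs (SD, n = 4 each), and Gbp4 for 9.01% ± 1.30 and 17.0% ± 0.823. The shares of the 4 genes with the smallest fold changes were smaller in miR-21-/- TAMs. Gbp9 went from 16.3% ± 2.19 to 6.81% ± 0.346, Gbp8 from 14.2% ± 2.27 to 6.18% ± 0.879, Gbp7 from 17.1% ± 2.19 to 10.8% ± 0.629 and Gbp3 from 7.57% ± 0.815 to 4.94% ± 0.586. That of Gbp5 was 7.31% ± 0.462 and 8.17% ± 0.454. Shares of a fixed whole are not independent of each other, and no test was made of them.

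Levels of different genes can be compared only per length, and CPM per kb of the longest consensus transcript was used for this. In WT TAMs, Gbp2 was highest at 59.8 ± 13.6 CPM per kb (SD, n = 4), followed by Gbp8 at 44.3 ± 9.45, Gbp9 at 28.2 ± 1.46, Gbp7 at 23.0 ± 1.53, Gbp3 at 21.6 ± 3.68, Gbp5 at 18.3 ± 2.61, Gbp6 at 17.0 ± 5.33, Gbp4 at 15.5 ± 4.62, Gbp2b at 9.13 ± 6.04 and Gbp10 at 0.454 ± 0.151. Of the 9 pairs of neighbors in this order, 6 overlapped in their samples. Those that did not were Gbp8 over Gbp9, Gbp9 over Gbp7 and Gbp2b over Gbp10. The order in miR-21-/- TAMs was another one, in which Gbp2 stayed first at 363 ± 41.2 CPM per kb (SD, n = 4) and Gbp4 came next at 108 ± 6.54. Gbp5 at 76.7 ± 4.93, Gbp6 at 76.7 ± 5.19, Gbp8 at 72.1 ± 10.7 and Gbp2b at 70.7 ± 30.9 CPM per kb came after these, then Gbp7 at 55.1 ± 2.83, Gbp3 at 52.9 ± 6.58, Gbp9 at 44.6 ± 2.37 and Gbp10 at 2.15 ± 0.529. Here also 6 of 9 pairs of neighbors overlapped, and Gbp2, Gbp4 and Gbp10 stood apart from theirs. The orders depend on the length used. With the length of all annotated exons, which is 6637 bases in place of 3055 for Gbp5, the miR-21-/- order put Gbp5 8th in place of 3rd, Gbp6 9th in place of 4th and Gbp2b 2nd in place of 6th, and in WT Gbp5 went from 6th to 8th; Gbp2 stayed 1st and Gbp10 10th in both genotypes.

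**Figure D2:**
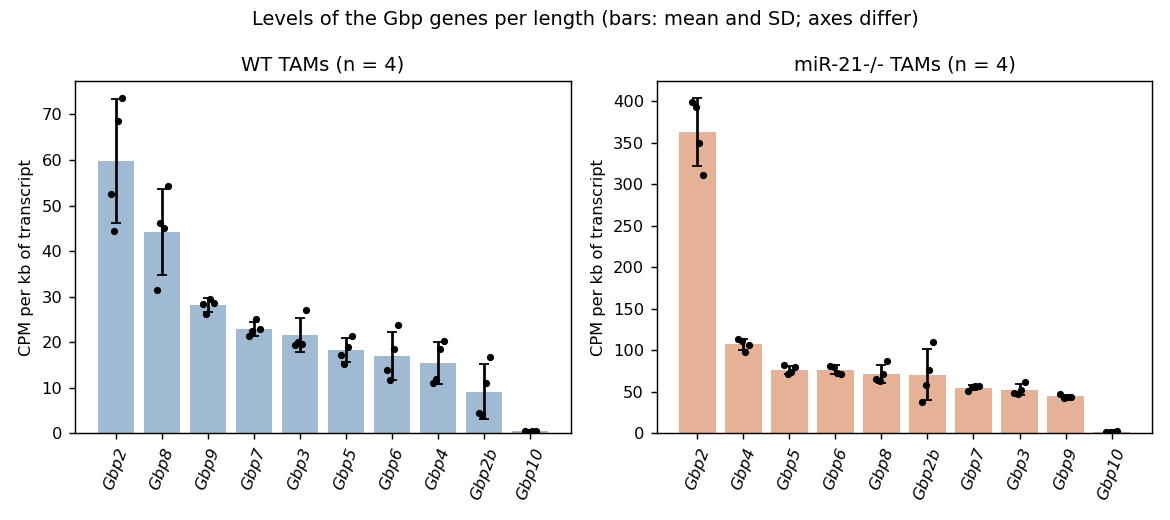
Mean level of each Gbp gene in CPM per kb of transcript (bars, with SD; points are the 4 samples), in WT (left) and miR-21-/- TAMs (right), each in its own order and on its own axis. Gbp2 leads in both, and Gbp4 is 8th in WT and 2nd in miR-21-/- TAMs (6th and 3rd with the length of all annotated exons).

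Some GBPs end in a CaaX motif, in which a prenyl anchor is attached to a cysteine. The last 4 codons and the stop codon of these transcripts are shown because they set Gbp2, Gbp2b and Gbp5 apart from the other 7 genes, with the cysteine codon in capitals.
Gbp2: TGCactatactctga
Gbp2b: TGCaccatactttaa
Gbp5: TGTgttataagctaa
The log2 fold changes of these 3 genes were 2.06 to 3.03, and those of the 7 genes without a cysteine codon at that place 0.66 to 2.83. The ranges overlap, since Gbp4 and Gbp6 also rose by more than Gbp5.

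The clusters differ in layout. In GRCm38 the genes of chromosome 3 run Gbp5, Gbp7, Gbp3, Gbp2b and Gbp2 on the plus strand, from 142493978 to 142638008, over 144 kb, and all 5 rose, by 1.26 to 3.03 on the log2 scale. Those of chromosome 5 run Gbp8, Gbp9, Gbp4, Gbp10 and Gbp6 in order of position, on the minus strand, from 105014150 to 105293698, over 279.5 kb, and their log2 fold changes spanned 0.66 to 2.83. All 10 are annotated as protein coding.

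Of the 20 tested genes nearest to the clusters, 5 on each side of each, 1 rose and 1 fell. Over all tested genes, 2.97% were called higher and 4.27% lower. Their median log2 fold change was -0.08, close to the -0.10 of all tested genes. On chromosome 3 limma called none of the 10 flanking genes, with 1 at an unadjusted p under 0.05. The nearest there, Kyat3 at 63043 bases and Pdlim5 at 98282 bases from the cluster, had log2 fold changes of -0.04 and -0.10. Beyond Pdlim5 the next tested gene, Rap1gds1, lies 3418777 bases away and the farthest, Eif4e, 3934282 bases. No other tested gene therefore lies near the cluster on that side. On chromosome 5, Lrrc8c, a subunit of a volume-regulated anion channel 225690 bases away, rose by 0.96 ± 0.07 SE (adjusted p = 1.36e-05), while Lrrc8b, which lies between it and the cluster, had a value of 0.20 and was not called. Abcg3, a transporter gene 31432 bases to the other side, fell by 0.64 on the log2 scale (adjusted p = 0.000359). Without WT sample 2 the fall was 0.58, under the limit on the fold change. The call of Abcg3 was also lost with the median of ratios.

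**Figure D3:**
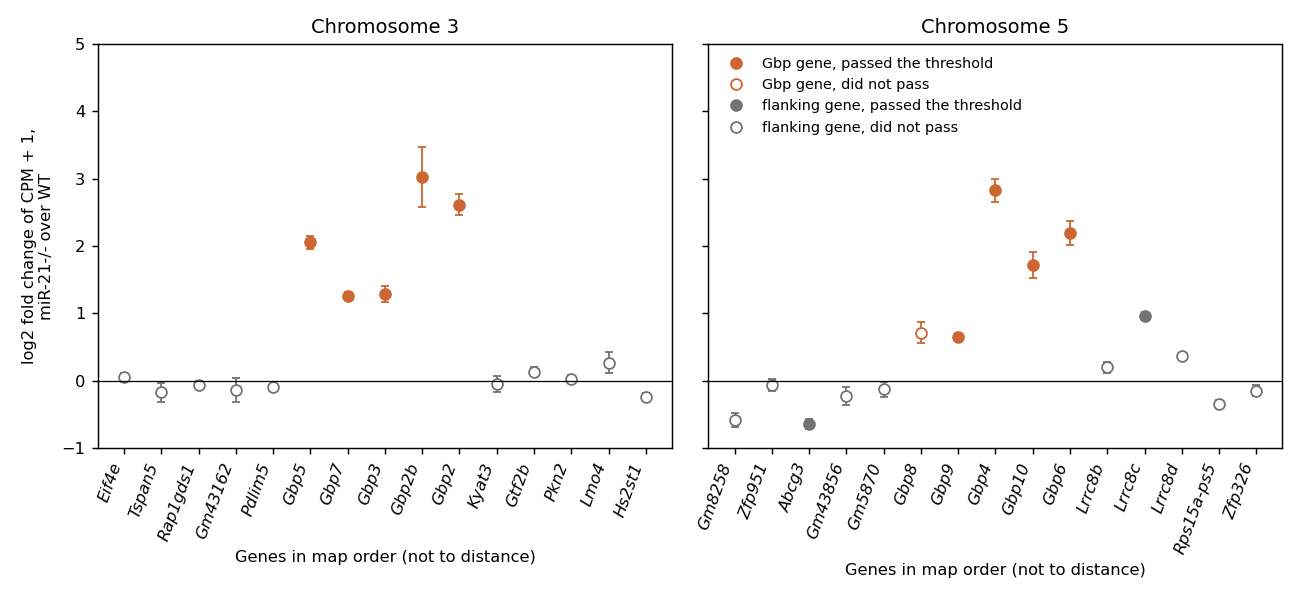
Log2 fold change of CPM + 1 (miR-21-/- over WT, points, with SE) of the Gbp genes and of the 5 tested genes on each side of each cluster, in map order but not to distance. The Gbp genes lie between 0.66 and 3.03, and 18 of the 20 flanking genes were not called.

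Promoters from 250 bases before to 50 after the annotated start were available in the RefSeq table of GRCm38.p6 for 5 of the 10 genes, those of chromosome 3, and are shown because these genes rose together. Gbp4, Gbp6, Gbp8, Gbp9 and Gbp10 have no entry in it. Capitals mark 2 motifs of interferon-responsive genes, searched on both strands. These are the interferon-stimulated response element (ISRE), written as GAAA and again GAAA with any 2 bases between them, bound by IRF factors, and the gamma-activated sequence (GAS), TTCNNNGAA, found at genes that respond to IFN-γ.
Gbp5, chr3:142496684-142496983, + strand: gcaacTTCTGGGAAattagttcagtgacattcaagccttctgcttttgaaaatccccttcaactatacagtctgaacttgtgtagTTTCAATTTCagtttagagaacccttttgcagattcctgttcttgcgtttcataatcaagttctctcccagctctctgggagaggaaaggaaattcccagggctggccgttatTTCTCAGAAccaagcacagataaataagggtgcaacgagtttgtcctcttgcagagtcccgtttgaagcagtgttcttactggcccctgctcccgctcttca
Gbp7, chr3:142530086-142530385, + strand: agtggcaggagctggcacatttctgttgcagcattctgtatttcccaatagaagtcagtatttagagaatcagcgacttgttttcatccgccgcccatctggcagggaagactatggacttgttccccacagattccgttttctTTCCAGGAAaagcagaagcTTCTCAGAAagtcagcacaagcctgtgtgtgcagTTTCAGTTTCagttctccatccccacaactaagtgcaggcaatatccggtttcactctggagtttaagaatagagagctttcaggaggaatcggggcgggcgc
Gbp3, chr3:142559794-142560093, + strand: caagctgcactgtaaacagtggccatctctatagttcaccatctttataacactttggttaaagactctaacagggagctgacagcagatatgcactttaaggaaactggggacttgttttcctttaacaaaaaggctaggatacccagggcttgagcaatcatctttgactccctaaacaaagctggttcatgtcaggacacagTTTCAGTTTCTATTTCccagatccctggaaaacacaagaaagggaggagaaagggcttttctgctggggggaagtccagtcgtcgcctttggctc
Gbp2b, chr3:142594597-142594896, + strand: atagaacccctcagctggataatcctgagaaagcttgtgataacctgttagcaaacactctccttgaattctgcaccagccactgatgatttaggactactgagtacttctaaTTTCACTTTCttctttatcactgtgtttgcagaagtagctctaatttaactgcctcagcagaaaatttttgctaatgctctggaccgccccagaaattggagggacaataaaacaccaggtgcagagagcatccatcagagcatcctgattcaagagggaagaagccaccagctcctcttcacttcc
Gbp2, chr3:142620413-142620712, + strand: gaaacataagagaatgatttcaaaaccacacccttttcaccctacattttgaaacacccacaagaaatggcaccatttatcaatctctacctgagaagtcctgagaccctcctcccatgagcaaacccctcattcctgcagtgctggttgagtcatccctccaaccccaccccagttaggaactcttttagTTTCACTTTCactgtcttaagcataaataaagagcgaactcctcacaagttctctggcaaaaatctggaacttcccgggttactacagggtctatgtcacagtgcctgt
The ISRE letters were present in a promoter of all 5 genes, compared with 3.44% of all 32851 promoters of the table and 3.99% of its 27025 genes. The GAS letters were present in Gbp5 and Gbp7, compared with 8.30% of promoters and 9.55% of genes.

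The matches lay at different distances from the start. Counted from its first base, the ISRE match began at base -165 in Gbp5, -53 in Gbp7, -137 in Gbp2b and -59 in Gbp2. In Gbp3 a pair of overlapping matches began at -45 and -39, and a second annotated promoter of Gbp3 held neither motif. The GAS matches began at -245 and -52 in Gbp5 and at -106 and -87 in Gbp7. The genes with both motifs, Gbp5 and Gbp7, rose by 2.06 and 1.26, compared with 1.29 to 3.03 for the 3 genes with the ISRE match alone. A match is a description of the letters, not a site shown to be bound and not a cause.

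**Figure D4:**
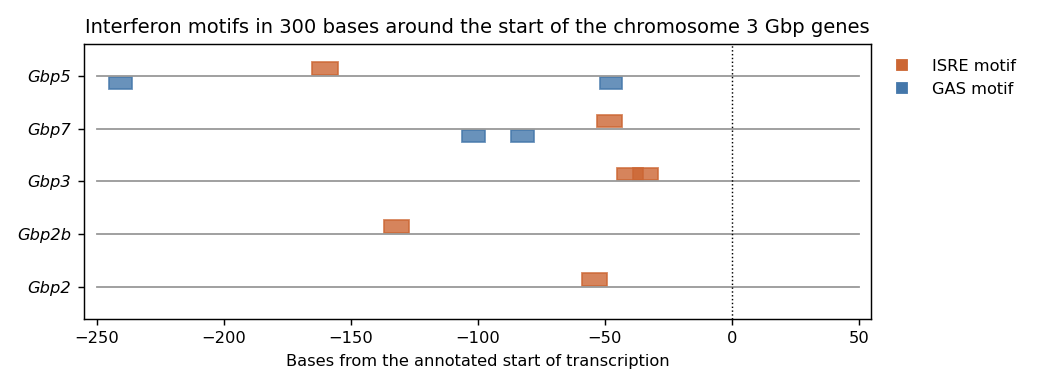
Place of the ISRE (orange) and GAS matches (blue) in the promoters of the 5 Gbp genes of chromosome 3, in bases from the annotated start of transcription. All 5 hold an ISRE match before the start, and Gbp5 and Gbp7 also hold GAS matches.

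Several members are so alike that reads could be shared or misassigned between them. The coding sequences of Gbp6 and Gbp10 were identical at 98.4% of aligned bases, those of Gbp4 and Gbp8 at 91.9%, those of Gbp2 and Gbp2b at 82.5% and those of Gbp3 and Gbp7 at 77.9%. Of all stretches of 50 bases in the Gbp6 transcript, 90.2% occurred also in an annotated transcript of another member or of 4 relatives outside the family list (Gbp11, Gbp2-ps, Gm43302 and Gm43802). Most of this was with Gm43302, a gene model that spans Gbp6 and Gbp10 (90.2%), and with Gbp10 (62.3%). The share was 82.5% for Gbp10, 21.2% for Gbp8, 12.8% for Gbp4, 12.8% for Gbp7 and 9.56% for Gbp9. It was 4.79% for Gbp3, 2.07% for Gbp2 and 1.84% for Gbp2b, and 0 for Gbp5. Values of Gbp6 and Gbp10 are therefore uncertain one against the other, while Gbp5 shared no stretch with these genes.

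The deposited values of most members did not come out as whole reads at the estimated depth. Multiplied by the depth, the Gbp5 values came out within 0.02 of a whole number of reads in 5 of 8 samples, the 4 WT samples among them. The same held for 3 of 72 values of the 9 other genes. Gbp5 itself missed in miR-21-/- samples 1, 3 and 4 (6716.932, 5853.904 and 7352.225 reads). At such numbers of reads a miss therefore does not show a fraction of a read. Gm43302 itself was listed at 0.0748, 0.176, 0.629 and 0.0831 CPM in the WT and 1.20, 2.62, 0.521 and 2.42 CPM in the miR-21-/- samples (exact permutation test, two-sided, p = 0.0571). Gm43802, a processed pseudogene that lies within Gbp7 and shares 637 exon bases with it, held 7.39 to 13.5 CPM in the WT samples and 20.9 to 21.7 CPM in the others. Gbp11, a relative outside the 10 genes, stayed under 1 CPM in all samples. Its groups overlapped, at 0.0372 to 0.220 CPM in the WT and 0.182 to 0.987 CPM in the miR-21-/- samples (exact permutation test, two-sided, p = 0.0571).

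Gbp4, Gbp8 and Gbp9 also have transcripts whose first exons overlap by 60 to 61 bases on chromosome 5, yet they differed in how far they changed. The ratio of Gbp4 to Gbp8 in CPM was 0.647, 0.482, 0.762 and 0.689 in the WT samples and 3.18, 3.24, 2.54 and 2.26 in the miR-21-/- samples. That of Gbp4 to Gbp9 was 0.403 to 0.732 in WT and 2.35 to 2.70 in miR-21-/- samples. Both ratios kept the groups apart, whereas that of Gbp8 to Gbp9, 0.622 to 1.06 in WT and 0.770 to 1.12 in miR-21-/- samples, overlapped.

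Across the 8 samples, members were compared by the root mean square difference of their centered log2(CPM + 1) values, as a description. Most alike were Gbp3 and Gbp7 at 0.18, Gbp2 and Gbp4 at 0.18 and Gbp5 and Gbp6 at 0.18, the last 2 pairs each made of 1 gene from either chromosome. Least alike were Gbp2b and Gbp9 at 1.38. By the same measure, the genes outside the family nearest to the mean of the 9 called members were Gm17936 at 0.12 (mean CPM 0.841 and 6.66, past the filter only through the miR-21-/- samples), the IFN-γ-inducible GTPase gene Tgtp2 at 0.14, the integrin gene Itgb7 at 0.14, the lymphoid and myeloid receptor gene Slamf7 at 0.14 and the transporter gene Slco3a1 at 0.15. All of these genes share the 8 libraries and the division into 2 genotypes.

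The pathway that leads to Gbp genes was followed through lists of genes. Of 15 tested genes of interferon signaling, 2 rose and 1 fell, with a median log2 fold change of 0.36. The calls in this list depend on the scaling and the threshold, with 5 in all under quantile normalization, 6 under the median of ratios and 12 at an adjusted p of 0.05 with no limit on the fold change. Those that rose were Socs1, the feedback inhibitor of the receptor (2.14), and the transcription factor gene Irf1 (1.63). Ifngr1, the ligand-binding chain of the IFN-γ receptor, fell by 0.72. The other chain, Ifngr2, had a value of -0.46, and the receptor's kinase genes Jak1 and Jak2 had values of 0.01 and 0.47. The further factors ran from Irf8 (0.54) over Stat3 (0.36), Irf2 (0.34) and Stat2 (0.32) to Irf9 (0.04), and the further inhibitors from Ptpn2 (0.53) and Socs3 (0.44) to Ptpn6 (-0.05). None of these 11 was called at the thresholds and scaling used throughout; Ifngr2, Jak2, Stat3, Irf8, Socs3 and Ptpn2 passed the limit on the limma adjusted p but not that on the fold change. Ifng, the ligand, had a level of 0.464 ± 0.292 CPM in WT samples, compared with 2.26 ± 1.07 CPM without miR-21 (SD, n = 4 each), which is 6 to 108 reads per sample. Its log2 fold change was 1.11 with an adjusted p of 0.00567, so that it was not called. Ifng passed the filter on low genes only through the miR-21-/- samples, so that its value is a description.

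Other interferon-inducible GTPases rose widely. Of 12 tested, 10 rose, with a median of 1.47 (0.92 with a pseudocount of 10). Tgtp1, an immunity-related GTPase that loads onto vacuoles like the GBPs, had the largest value (3.38), followed by Gm4841 (2.13) and Tgtp2 (2.08). Gm4841, whose mean CPM was 0.813 among WT and 6.84 among miR-21-/- samples, passed the filter only through the latter, and without it 9 of 11 rose. F830016B08Rik (1.74), Igtp (1.65), Ifi47 (1.45) and Gm12250 (1.17) rose also, as did the regulatory members Irgm1 (1.49) and Irgm2 (0.73) and the very large GTPase gene Gvin1 (0.91). Mx1 and Mx2, antiviral GTPases induced by type I interferon, were the exceptions, at 0.14 and -0.03.

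Of 17 tested genes induced by IFN-γ in macrophages, 15 rose, with a median of 0.96, from Cxcl10, a chemokine gene (2.33), and Cxcl9 (2.17) to Psmb10, an immunoproteasome subunit gene (0.59). Cxcl11 (means 0.631 and 3.16 CPM), one of the 15, passed the filter only through the miR-21-/- samples. The calls in this list were 12 with no filter, 13 with a pseudocount of 10 and 13 to 15 with a sample left out. Ciita, the regulator of MHC class II genes, was lowest at -0.14 and was not called. Irf1 and Socs1 stand in this list as well as in the signaling list. Of 20 genes better known from type I interferon, 1 rose, Zbp1, a sensor of nucleic acids (1.27), with a median of 0.15 and Oas2 lowest at -0.47. Rsad2 (0.75, limma adjusted p = 0.00835), Rtp4 (0.63, 0.00677) and Oasl2 (0.59, 0.00636) had groups that did not overlap and missed the limit on the adjusted p. With Isg15 and Zbp1 these were 5 of 20 without overlap, as higher, compared with 9.61% of all tested genes. An adjusted p of 0.05 with no fold limit called 8 of the 20 in either direction, compared with 36.8% of all tested genes. The calls in this list were 3 without WT sample 1, 2 with the median of ratios and 4 each with array weights and the replicate block, and its median ran from 0.03 without WT sample 3 to 0.25 without WT sample 1.

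Partners of the GBPs and inflammasome genes were followed in the same way. None of 18 genes for the loading of GBPs on membranes (the ATG conjugation genes, Gabarap genes, Sqstm1, Trim21 and Traf6) or for prenylation was called by limma, with 10 of them at an unadjusted p under 0.05 and a median of -0.03 (0.08 with the median of ratios). With no fold limit, an adjusted p of 0.05 called 8 of the 18, compared with 36.8% of all tested genes. The share of all tested genes at an unadjusted p under 0.05 was not taken and cannot be lower than that. Their values ran from 0.45 for Trim21, a ubiquitin ligase, to -0.38 for Fnta, the shared subunit of the prenyl transferases. Of 10 inflammasome genes, 3 rose and 1 fell, with a median of 0.22. Casp4, the mouse gene of caspase-11, rose by 1.12, Casp1 by 1.03 and Nlrp3 by 0.93, and Nlrc4 fell by 0.62, just past the limit on the fold change. The calls in this list were 3 in place of 4 with a pseudocount of 10, with either rescaling and without WT sample 2. Gsdmd, the gene of the pore protein, had a value of -0.02.

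**Figure D5:**
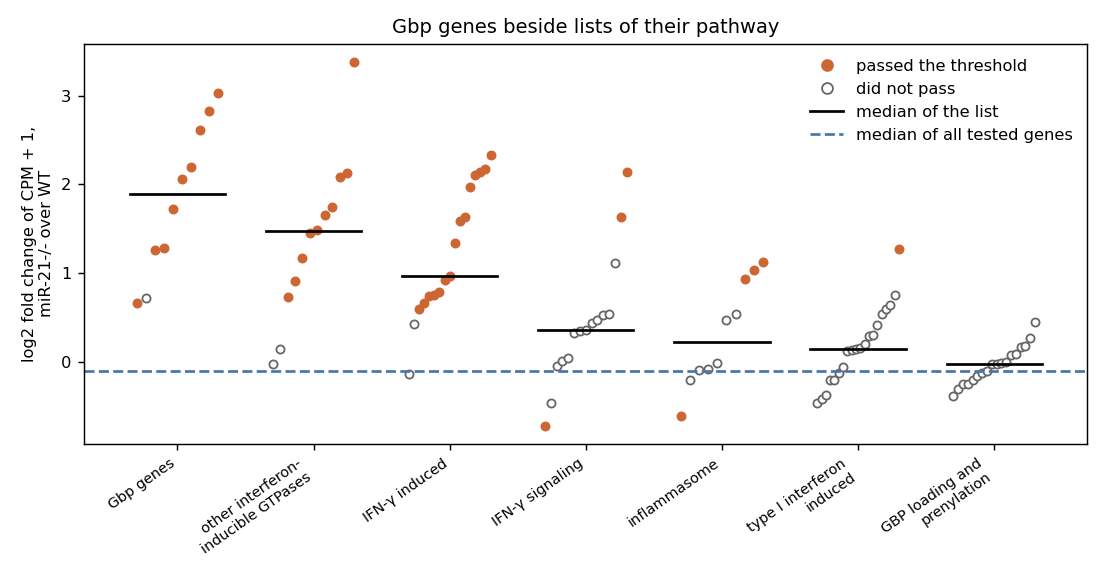
Log2 fold change of CPM + 1 (miR-21-/- over WT) of the Gbp genes and of each tested gene of 6 lists, with called genes filled, list medians as black bars and the median of all tested genes dashed. The medians are 1.89 for the Gbp genes, 1.47 for other GTPases, 0.96 for IFN-γ-induced genes and -0.03 for partners.

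The sorted cells held the markers of macrophages in both genotypes, with a summed level of 12780 to 14275 CPM in the WT samples and 13556 to 16094 CPM in the others over 10 genes, of which 1, Fcgr1, was called, as higher; it stands among the IFN-γ-induced genes as well. Values were under 0 for 6 of the 10, and Adgre1, the gene of F4/80 (-0.38, adjusted p = 0.00137), and Csf1r (-0.48, adjusted p = 0.00525) were lower in every miR-21-/- sample than in any WT sample without passing both limits of the limma call. Markers of other cells were present at lower levels, and no marker was at 0 in all samples. The sum of 10 NK cell markers was 11.3 to 28.8 CPM in the WT samples and 17.2 to 45.7 CPM in the others; all 4 that could be tested had values above 0, with none called by limma and 3 at an unadjusted p under 0.05. The sum of 10 T cell markers overlapped, at 27.6 to 48.4 and 12.9 to 46.9 CPM, with Cd4 called lower (-2.35) and Cd8a, not called, higher in every miR-21-/- sample than in any WT sample, at 1.32 to 2.19 and 2.80 to 11.6 CPM (1.28, limma adjusted p = 0.00806). B cell markers were lower, at 58.3 to 98.9 and 16.4 to 26.7 CPM with 2 of 2 tested called, as were fibroblast markers, at 67.9 to 146 and 11.7 to 46.5 CPM with 4 of 7 called. Neutrophil markers summed to 770 to 1169 and 575 to 748 CPM, dendritic cell markers to 21.6 to 29.0 and 19.2 to 43.2 CPM, endothelial markers to 155 to 306 and 204 to 293 CPM and tumor epithelial markers to 18.8 to 24.8 and 12.7 to 17.9 CPM. Of 8 dendritic cell markers tested, 6 had values under 0, from Cd209a (-1.28) on, and of these Dpp4 was called (-1.04). Cd209a (means 2.62 and 0.396 CPM), Flt3 (1.69 and 0.924) and Zbtb46 (1.51 and 0.875) passed the filter only through the WT samples. Clec9a, not called, was higher in every miR-21-/- sample, at 2.30 to 2.74 and 4.18 to 14.0 CPM (1.26, limma adjusted p = 0.00532), and Xcr1 had a value of 1.06 with overlapping groups. The part of these cells in the levels of the Gbp genes was not tested.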

How the data were processed

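RNA-Seq of mRNA libraries was made from sorted TAMs of 4 WT and 4 miR-21-/- samples. The authors deposited CPM values, each raised by 0.0001, which was subtracted here; the submitters' processing notes name STAR, Partek 7.0 and mm10. Counting rule and strand are not given in the sources used here. Starts of all 10 genes matched GENCODE vM21 (GRCm38). The deposited table also holds the authors' identifiers and coordinates and no fold changes.

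Log2(CPM + 1) values were kept for genes whose mean reached 1 CPM, 13362 in all, and were fitted by genotype with limma 3.58.1 in R 4.3.3 (eBayes with trend), with Benjamini-Hochberg adjustment over all of them. Single low genes were compared by exact permutation over 35 splits, for which the smallest two-sided p is 0.0286. Depth was read from the steps of values up to 20 reads, of which 73.7% to 74.6% were whole within 0.02 reads; whole reads were not recovered, and no count test was run. Precision is limited by 4 samples per genotype.

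Levels per kb used the longest consensus (CCDS) transcript, coding sequences were aligned with mafft 7.526, and shared stretches were exact matches of 50 bases. The genes named are the 10 members, all tested genes of the signaling and GTPase lists, the highest and lowest of each other list of pathway genes and of the flanking genes, the 5 genes most alike, Mir21a and Vmp1; other genes named were chosen after their values were seen. 1 gene was left out of the lists and is not reported here. The members and lists were chosen with earlier results of these data known. Alternatives were other pseudocounts, filters and scalings, limma without trend, array weights, the replicate number as a block, another threshold and leaving out each sample. The model was tested on simulated data. Figures were drawn with matplotlib 3.10.9.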

Additional observations from a re-analysis of the deposited data

Results flagged for a closer look

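Within the WT samples, the Gbp3 level of sample 4, 72.6 CPM, stood apart from the other WT samples, which held 52.2, 53.7 and 52.7 CPM. Its gap to the nearest of them, divided by the range of the group, was over the 95% critical value of Dixon's test for 4 samples. It was the only such value among the 20 groups formed by 10 genes and 2 genotypes, and chance alone marks about 1 in 20. Without that sample the Gbp genes called numbered 10 in place of 9, since Gbp8 was added.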

How the results depend on the processing

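The count of Gbp genes called, 9, stayed between 8 and 10 under all alternatives and between 9 and 10 when each sample was left out in turn, and no Gbp gene had a log2 fold change under 0 in any of them. It was 8 with no filter on low genes, where Gbp2b was lost, and 8 with a filter of 5 CPM, which leaves Gbp10 untested. It was 10 with the median of ratios, array weights, a block on the replicate number and an adjusted p of 0.05 with no fold limit. No Gbp gene was under the filter of 1 CPM. The 31 list genes called became 57 at an adjusted p of 0.05 with no limit on the fold change and stayed between 28 and 33 with a sample left out. The 2 of 20 flanking genes called became 1 with the median of ratios and 1 to 3 with a sample left out. At an adjusted p of 0.05 with no fold limit they became 6, compared with 36.8% of all tested genes. With the length of all annotated exons, an alternative chosen after seeing the data, 9 of 20 places in the orders per kb were kept, with moves of up to 5 places; Gbp2 stayed 1st in both genotypes. Among all tested genes, 967 calls became 453 with a pseudocount of 10 and 515 with no filter, and ranged from 671 to 975 with a sample left out.

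Whether the samples are paired could not be settled. Same-numbered WT and miR-21-/- samples had correlations of their deviations from the group means of 0.085, -0.11, -0.15 and 0.23. Not every sample correlated best with its own number. The numbers used here do not follow those in the titles of the miR-21-/- samples. By title, WT sample 3 stands beside miR-21-/- sample 2 (0.14) and WT sample 4 beside miR-21-/- sample 3 (0.034). With the replicate number as a block, 10 Gbp genes, 34 list genes, 2 flanking genes and 907 genes of the table were called, with Gbp8 at an adjusted p of 0.00154. Low depth limits Gbp10, Ifng and Gbp11, and shared sequence limits Gbp6 and Gbp10. The causes of these shifts were not tested.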
